A study of Mus musculus with 16 samples.

Results

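The genes described here encode 10 enzymes of ceramide and sphingolipid metabolism, which were chosen by name from the known pathway. They are Sptlc1, Sptlc2, Lass2, Lass5, Lass6, Degs1, Asah1, Smpd1, Ugcg and Sgms1, and the Lass genes are now called Cers. The arrays listed 27745 gene names, and 16 of their 41174 probes belonged to these 10 genes. Of the 16 probes, 14 were bright enough to be among the 19398 probes tested, with at least 1 for every gene. The genes were measured in gastrocnemius, a muscle of the calf, of 2 groups of 8 mice, cHF+ROSI and cHF+F+ROSI. All were male C57BL/6N mice, 3 months old at the start, which ate a corn oil-based high-fat diet with about 35% lipid by weight for 8 weeks. Both groups received rosiglitazone, an anti-diabetic drug that activates PPARγ, at 10 mg per kg of feed, so the drug itself was not varied. In the cHF+F+ROSI diet, 15% of the lipids was exchanged for a concentrate of DHA and EPA, long-chain n-3 fatty acids. The muscle was taken in the morning after a 10 hour fast had been ended with Chow in the evening. RNA of each mouse was labelled with Cy5 and hybridised beside 1 common pool labelled with Cy3, so every value below is a log2 ratio of the mouse to that pool. A ratio can be compared between mice, not between genes. On each of the 4 slides, positions 1 and 3 carried cHF+ROSI and positions 2 and 4 carried cHF+F+ROSI arrays, and position and diet cannot be told apart. The median spot of an array had a Cy5 signal of 2.33 to 3.64 times background and a Cy3 signal of 1.78 to 2.02 times background.

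Ceramide is the hub of sphingolipid metabolism. It is built de novo in the endoplasmic reticulum, where serine palmitoyltransferase joins serine to palmitoyl-CoA, ceramide synthases add a fatty acyl chain and a desaturase completes the molecule. Ceramide is then turned into sphingomyelin or glucosylceramide, or is split to sphingosine by ceramidases, and in muscle of animals fed fat its accumulation is known for its link with impaired insulin signalling.

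RefSeq promoter windows were found for 9 of the 10 genes, not for Asah1. The start sites gave 13 windows of 250 bases before the start. Those of the paired serine palmitoyltransferase subunits are shown because these subunits work in 1 complex, and that of Lass5 because its ratio varied least between mice. They are printed 5′ to 3′ on the strand of the gene (GRCm38.p6), with bases inside the annotated span of the gene left out, and the capitals mark matches to CCAAT or ATTGG (the CCAAT box on either strand) and to GGGCGG or CCGCCC (the GC box on either strand).
Sptlc1, chr13:53377418-53377611, minus strand: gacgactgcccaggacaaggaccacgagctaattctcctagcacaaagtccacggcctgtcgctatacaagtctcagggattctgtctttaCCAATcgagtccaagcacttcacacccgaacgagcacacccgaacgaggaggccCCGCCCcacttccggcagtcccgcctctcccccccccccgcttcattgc
Sptlc2, chr12:87388356-87388605, minus strand: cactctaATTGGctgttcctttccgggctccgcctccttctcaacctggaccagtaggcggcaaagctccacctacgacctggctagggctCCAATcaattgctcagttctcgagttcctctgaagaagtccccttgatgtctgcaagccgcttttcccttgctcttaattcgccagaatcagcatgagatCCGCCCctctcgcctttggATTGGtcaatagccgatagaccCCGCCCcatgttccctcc
Lass5, chr15:99772516-99772765, minus strand: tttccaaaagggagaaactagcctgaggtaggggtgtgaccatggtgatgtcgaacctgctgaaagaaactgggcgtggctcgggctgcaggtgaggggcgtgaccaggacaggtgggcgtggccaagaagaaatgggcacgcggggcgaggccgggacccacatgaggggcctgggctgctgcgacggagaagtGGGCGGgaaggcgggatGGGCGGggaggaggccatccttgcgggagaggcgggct
The Sptlc1 and Sptlc2 windows both held CCAAT at positions -159 to -155, counted back from -1 at the base before the start. The CCAAT box was present in 33.8% and the GC box in 32.7% of all 32851 windows. The E-box CACGTG, found in 6.02% of all windows, was present in 1 window each of Lass2, Lass6 and Degs1. A direct repeat of AGGTCA with 1 base between, bound by PPAR with RXR, was in 0.0335% of all windows and in 0 of the 13. The members' windows also held neither TATAAA nor TGACGTCA, which were present in 12.4% and 1.55% of all windows. The 6 motifs were searched on both strands, and the matched stretches did not overlap.

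No difference between the diets passed the test at any of the 10 genes. At an adjusted p of 0.05 in limma, 0 of 14 probes were called, against 0.0155% of all probes tested. The unadjusted p was at or below 0.05 for 0 of 14, where 7.46% of all probes reached this limit, 3.5% higher and 3.96% lower in the cHF+F+ROSI mice. With a fold change (FC) of at least 1.2 asked for as well, 0 of 14 were called against 1.49% of all probes. The groups overlapped for every member probe kept, and they were apart for 0.0773% of all probes. Of the 14 probes, 5 had a higher and 9 a lower mean in the cHF+F+ROSI mice. The median log2 fold change of the 10 genes, 1 probe each, was -0.0031, beside -0.0014 over all probes. The 95% intervals of the 14 probes all lay within -0.42 to 0.26 on the log2 scale. The offset used in background correction makes these folds smaller than the true ones.

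**Figure D1:**
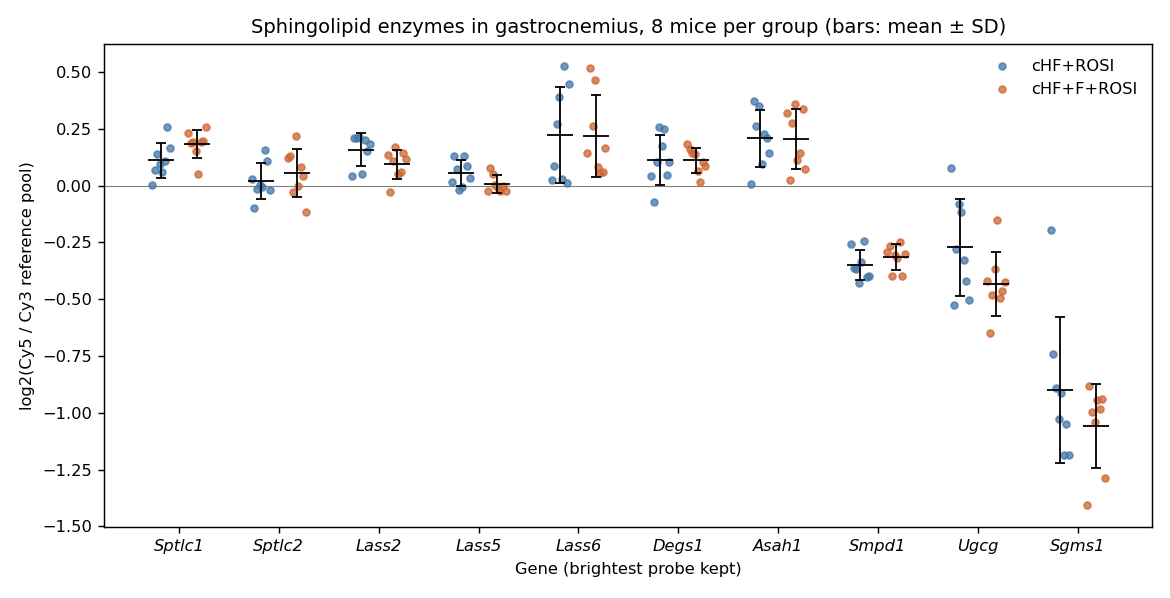
Log2 ratio of each mouse to the reference pool for the brightest kept probe of each of the 10 genes, with cHF+ROSI mice in blue, cHF+F+ROSI mice in orange and black bars for the mean and SD of 8 mice. The points of both groups overlap for every gene, and Sgms1 spreads most widely, with 1 cHF+ROSI mouse above the rest.

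The first step of ceramide synthesis is carried out by serine palmitoyltransferase, whose subunits are encoded by Sptlc1 and Sptlc2. For Sptlc1 the log2 ratio was 0.0025 at the lowest, 0.10 at the median and 0.26 at the highest in the cHF+ROSI mice, and 0.050, 0.19 and 0.26 in the cHF+F+ROSI mice. The ranges were nearly the same at the top, and 7 of 8 mice given n-3 exceeded the mean of the others. The log2 fold change was 0.071 ± 0.043 (SE, n = 8 per group), with a 95% interval of -0.019 to 0.16 and an adjusted p of 0.730 in limma. The two-sided exact permutation test over the 16 mice gave p = 0.0626. Within slides, the difference was above 0 on 3 and below 0 on 1 of the 4 slides.

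Sptlc2, the catalytic partner of Sptlc1, was measured by 2 probes kept, 32891 bases apart on chromosome 12 (mm8). At the brighter probe the log2 ratio ran from -0.098 through a median of -0.0015 to 0.16 in the cHF+ROSI mice and from -0.11 through 0.061 to 0.22 in the cHF+F+ROSI mice. The ranges overlapped almost completely, and the log2 fold change was 0.037 ± 0.051. The other probe gave 0.050 ± 0.066, so both pointed the same way, each by less than its error. A further Sptlc2 probe did not reach the limit on signal over background, and without that limit its log2 fold change was -0.0046 ± 0.053.

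Ceramide synthases differ in the length of the acyl chain they attach. Lass2, which prefers very long chains, had a log2 ratio of 0.043, 0.19 and 0.21 at the lowest, median and highest cHF+ROSI mouse and of -0.029, 0.11 and 0.17 in the cHF+F+ROSI mice. Only 1 of 8 mice given n-3 was above the cHF+ROSI mean. The difference amounted to -0.063 ± 0.042, with an interval of -0.15 to 0.025, an adjusted p of 0.769 in limma and an exact permutation p of 0.0819. The difference was below 0 on 4 of 4 slides, between -0.099 and -0.024. Quantile-normalized Cy5 signals alone, without the reference channel, gave -0.27 ± 0.14 with an interval of -0.56 to 0.028. In the Cy3 channel, where every array held the same pool, the log2 signal of the Lass2 probe also differed in this direction, by -0.16 ± 0.10 with an interval of -0.38 to 0.050.

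Lass5, a synthase with a preference for palmitoyl-CoA, ran from -0.017 through 0.054 to 0.13 in the cHF+ROSI mice and from -0.024 through -0.0065 to 0.079 in the cHF+F+ROSI mice. The groups shared most of their range, although 1 of 8 cHF+F+ROSI mice exceeded the cHF+ROSI mean. The fit gave a log2 fold change of -0.049 ± 0.036, the adjusted p in limma 0.803 and the exact permutation p 0.0673, and the sign was negative on 4 of 4 slides. An FC of 1.2 in either direction was outside the interval, which ran from -0.13 to 0.027 on the log2 scale. The same held at the brightest kept probes of Sptlc1, Sptlc2, Lass2, Lass6, Degs1, Asah1 and Smpd1. The offset in background correction makes all these folds smaller.

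Lass6, a synthase for shorter chains such as palmitate, could be followed only through a probe that carries its name but is assigned to an unclassified cDNA. At this probe the log2 ratio of the cHF+ROSI mice was 0.0097 at the lowest, 0.18 at the median and 0.53 at the highest, and that of the cHF+F+ROSI mice was 0.056, 0.15 and 0.52. Both groups spread over the same wide range, and the log2 fold change was -0.0042 ± 0.093. The probe assigned to the Lass6 transcript itself, 3223 bases away on chromosome 2 (mm8), was not well above background on any of the 16 arrays.

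Degs1, the desaturase that converts dihydroceramide to ceramide, had the difference closest to 0. Its log2 ratio was -0.072, 0.11 and 0.26 at the lowest, median and highest cHF+ROSI mouse and 0.015, 0.12 and 0.18 in the cHF+F+ROSI mice. All 8 cHF+F+ROSI mice lay inside the cHF+ROSI range. Degs1 had a log2 fold change of -0.0011 ± 0.049, with an interval of -0.10 to 0.10.

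**Figure D2:**
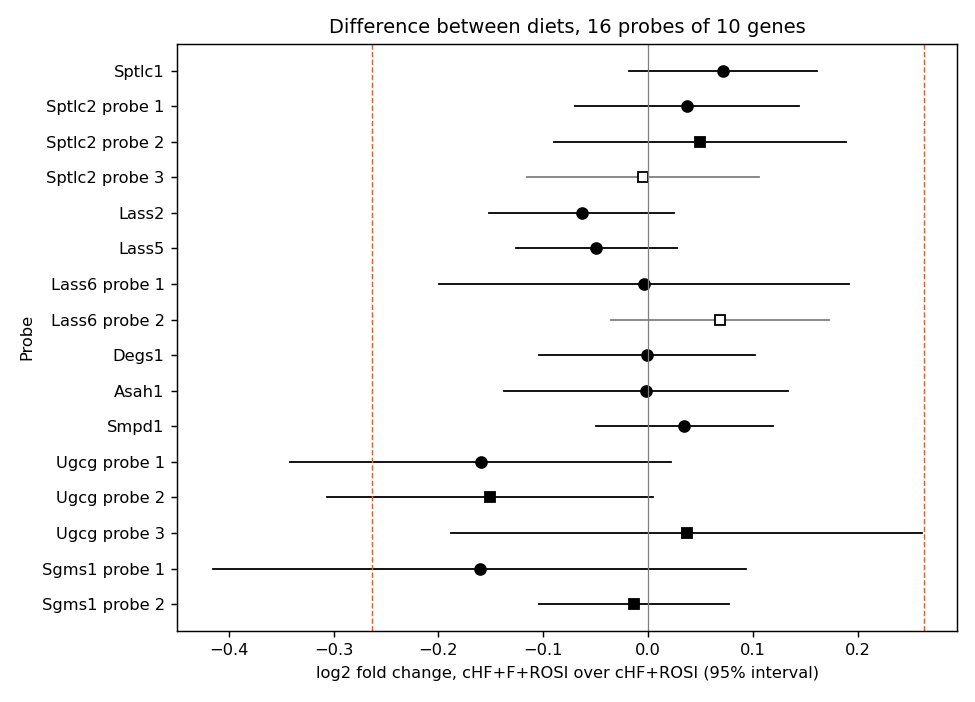
Log2 fold change of cHF+F+ROSI over cHF+ROSI with its 95% interval for all 16 probes, with circles for the brightest kept probe of a gene, squares for further probes and open symbols for the 2 probes below the limit on signal over background. The dashed lines mark an FC of 1.2, and every interval crosses 0.

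Of the enzymes that use ceramide or release it, Asah1 and Smpd1 work in the lysosome. Asah1, acid ceramidase, ran from 0.0052 through 0.22 to 0.37 in the cHF+ROSI mice and from 0.026 through 0.21 to 0.36 in the cHF+F+ROSI mice. The groups covered the same range, with a log2 fold change of -0.0020 ± 0.064. Smpd1 encodes acid sphingomyelinase, and its log2 ratio was -0.43, -0.36 and -0.24 at the lowest, median and highest cHF+ROSI mouse and -0.40, -0.30 and -0.25 in the cHF+F+ROSI mice. The log2 fold change of Smpd1 was 0.034 ± 0.040, and all 8 cHF+F+ROSI mice again lay within the cHF+ROSI range.

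Ugcg, glucosylceramide synthase, makes the first glycosphingolipid, and its probes did not give 1 answer. At the brightest probe the log2 ratio was -0.52 at the lowest, -0.30 at the median and 0.077 at the highest in the cHF+ROSI mice, and -0.65, -0.44 and -0.15 in the cHF+F+ROSI mice. Here 1 of 8 cHF+F+ROSI mice was above the cHF+ROSI mean, while 7 of 8 lay inside the cHF+ROSI range. It had a log2 fold change of -0.16 ± 0.086 (adjusted p = 0.711 in limma, exact permutation p = 0.101). A probe 130 bases away on chromosome 4 (mm8) gave -0.15 ± 0.074, with the lowest unadjusted p of all member probes, 0.0567 in limma, an adjusted p of 0.682 and a negative difference on 4 of 4 slides. The 2 probes varied together over the 16 mice, with Pearson's r of 0.91 after the group means were taken off.

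A Ugcg probe that lies 3834 bases from the brightest one and was much dimmer had a log2 fold change of 0.037 ± 0.11. Its sign turned with the processing, to -0.13 ± 0.13 in the authors' table, -0.082 ± 0.075 with Cy5 alone and -0.17 ± 0.17 with the processed signals of the scanner software. At this probe cHF+ROSI mice 1 and 5 and cHF+F+ROSI mouse 5 were at -0.0020, -0.055 and -0.061, and the other 13 mice lay between -0.76 and -0.36. The difference between the diets in the gap between this probe and the brightest one was -0.20, with p = 0.0356 in the exact permutation test and 0.139 after adjustment over the 5 probe pairs of a gene. Without cHF+ROSI mouse 1, whose array was the dimmest in Cy5, the log2 fold changes of the 2 neighbouring probes were -0.11 ± 0.078 and -0.11 ± 0.070. That array had a median Cy5 signal over background of 2.33, and the other cHF+ROSI arrays had at least 3.02. The part of its low signal in the Ugcg difference was not tested.

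Sgms1, sphingomyelin synthase, gave the other log2 fold change beyond -0.1 among the members. At the brighter probe the log2 ratio was -1.19, -0.97 and -0.20 at the lowest, median and highest cHF+ROSI mouse and -1.41, -0.99 and -0.88 in the cHF+F+ROSI mice. The mouse at -0.20 was again cHF+ROSI mouse 1, and the next highest of its group was at -0.74. The log2 fold change was -0.16 ± 0.12 (adjusted p = 0.809 in limma, exact permutation p = 0.261), and it was -0.061 ± 0.086 without this mouse. The other Sgms1 probe, 506 bases away on chromosome 19 (mm8), had a log2 fold change of -0.013 ± 0.043 with an interval of -0.10 to 0.078. The r of the 2 Sgms1 probes over the mice was 0.56.

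**Figure D3:**
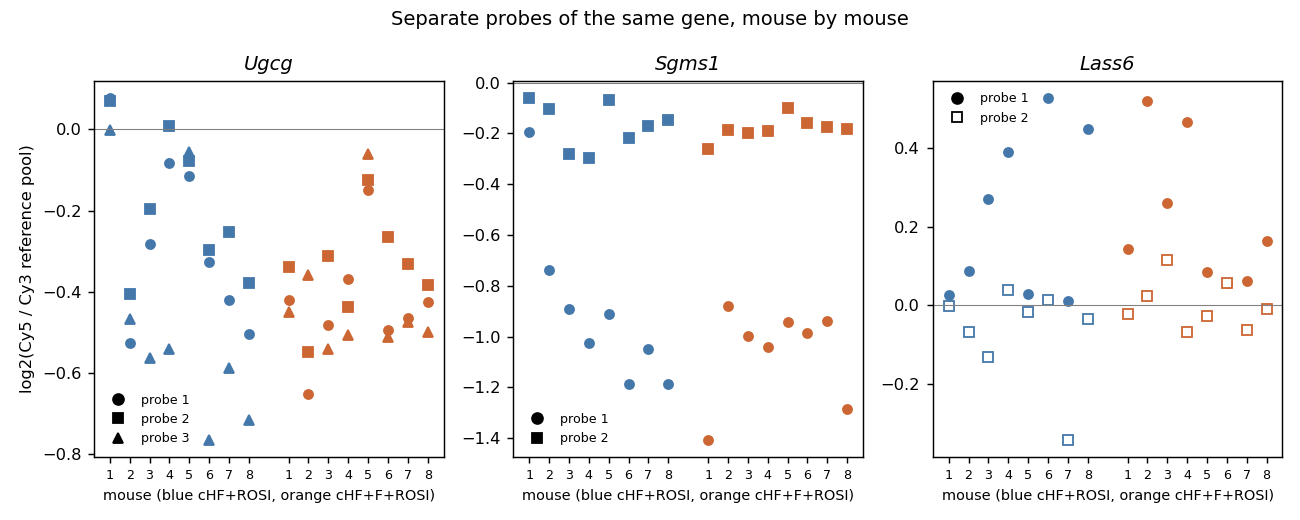
Log2 ratio to the reference pool of every mouse at each probe of Ugcg, Sgms1 and Lass6, with cHF+ROSI mice in blue, cHF+F+ROSI mice in orange and open symbols for the Lass6 probe that was not kept. In cHF+ROSI mouse 1 the brightest probe stood at 0.077 for Ugcg and at -0.20 for Sgms1, each the highest value of that probe.

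The members also differed in how much they varied between mice of the same diet. The SD over the 16 mice after removal of the group means had a median of 0.087 over the 10 genes and of 0.133 over all probes kept. Lass5 was the steadiest at 0.048, and only 0.268% of all probes varied less. Smpd1 at 0.060, Lass2 at 0.066 and Sptlc1 at 0.068 were among the steadiest 3.31% of probes. For Lass2 this was a trait of the ratio, as its SD over the 16 mice was 0.31 in the Cy5 channel alone. For Smpd1 it depended on the processing, as the error of its log2 fold change was larger with scale normalization. Sgms1 was the most variable member at 0.25 at its brighter probe, where cHF+ROSI mouse 1 stood apart. At its other kept probe the SD was 0.045 in the cHF+F+ROSI and 0.090 in the cHF+ROSI mice. The differences in SD between genes were not tested.

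Over the 45 pairs of members, r across the 16 mice after removal of the group means had a median of 0.087 and lay above 0 for 27 pairs. These correlations are descriptions, since each mouse had its own array and the arrays differed in brightness. Lass2 and Asah1 had the highest r of 0.84, with 0.86 in the cHF+ROSI and 0.82 in the cHF+F+ROSI mice. Both also followed the median Cy5 signal over background of the array, with r of 0.75 for Lass2 and 0.67 for Asah1. The r of the pair was 0.69 with this brightness removed and 0.092 in the Cy5 channel alone. Sgms1 had an r of -0.69 and Smpd1 of -0.52 with the brightness, and -0.26 and -0.34 without cHF+ROSI mouse 1. The remaining members lay between -0.33 (Ugcg) and 0.44 (Lass6) over the 16 mice. Lass6 and Degs1 had an r of 0.61. The lowest values were -0.64 for Lass5 with Ugcg, -0.64 for Sptlc1 with Sgms1 and -0.63 for Sptlc1 with Ugcg. Sptlc1 and Sptlc2, the subunits of 1 enzyme, had an r of 0.085. In cHF+ROSI mice 1 and 5 and cHF+F+ROSI mouse 5, some members lay closer to 0 than in most other mice. In this order, Lass2 was at 0.043, 0.050 and 0.053 and Sptlc1 at 0.0025, 0.060 and 0.050. Smpd1, at -0.26, -0.34 and -0.32, was inside the range of the other mice. The arrays of the mice numbered 5 were not dim, with a median Cy5 signal of 3.16 and 3.36 times background. The part of such shared shifts in r was not tested.

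**Figure D4:**
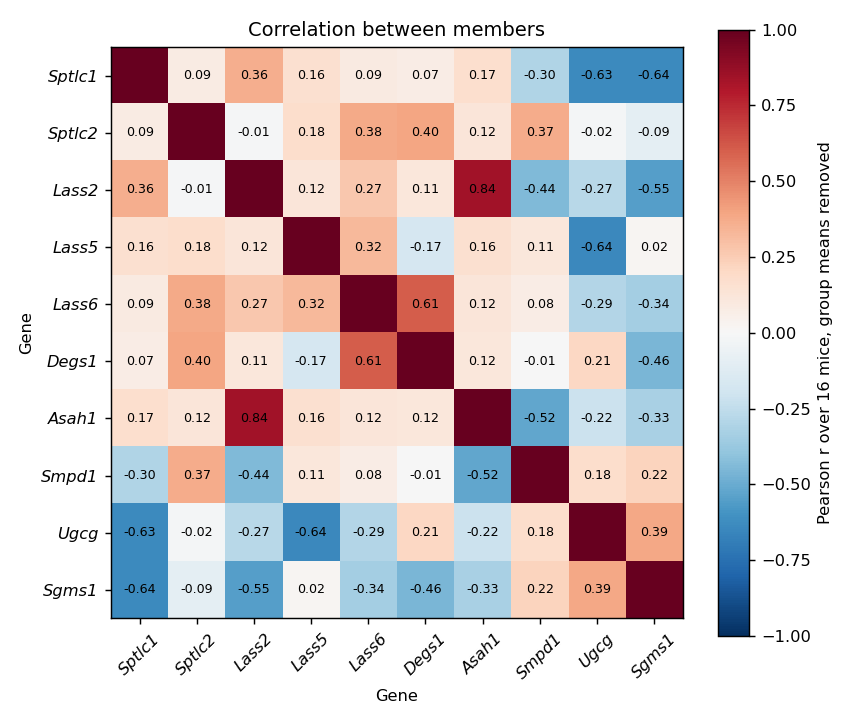
Pearson's r of each pair of members over 16 mice after the group means were taken off, with red for positive and blue for negative values. Lass2 with Asah1 is highest at 0.84, and Lass5 with Ugcg and Sptlc1 with Sgms1 are lowest at -0.64.

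Likeness to each member over the mice was ranked by r among 19310 probes that had values on all 16 arrays. For Sptlc1 they were Cdc73, 2700049P18Rik and Ythdc2, with r of 0.91, 0.91 and 0.90. Ppt1, a lysosomal thioesterase, led for Sptlc2 at 0.81, ahead of Slc19a2 at 0.78 and Thsd4 at 0.77. For Lass2 they were Tia1 at 0.90, Nup205 at 0.89 and Prkaa1, a catalytic subunit of AMP-activated protein kinase, at 0.89. Lass5 had lower values, with Cpt1c and Glrx at 0.79 and Sae1 at 0.78. For Lass6 they were Slco2a1 at 0.92, D930005D10Rik at 0.90 and Vangl1 at 0.88. For Degs1 they were Gramd1a at 0.85, Ppap2a, a lipid phosphate phosphatase, at 0.83 and Slc16a6 at 0.82. Asah1 was most like Jam3 at 0.87 and Pde8a at 0.86, with Lass2 next. For Smpd1 the 3 values lay at 0.78 (Ammecr1l, LOC14210 and Cep63). Ugcg had D630040G17Rik and Cad at 0.90 and Hes6 at 0.87. Sgms1 had Rtf1 and Rbm24 at 0.95 and Mll3 at 0.91. The part of array brightness in these values was not tested.

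The labelled tissue was checked against its markers, since a whole muscle holds several cell types and fewer cells of a type and less RNA per cell cannot be told apart. All 8 muscle fibre genes were kept. The Acta1 probe was saturated in Cy5 on 15 of the 16 arrays and the Actn3 probe on 1, which limits their ratios. The mean Cy5 signal over background of the 8 genes lay between 6794 and 11941. Their median log2 fold change was -0.062, with 0 of 8 at or below an unadjusted 0.05 in limma and mean log2 ratios of 0.039 to 0.49 in the cHF+ROSI and 0.10 to 0.34 in the cHF+F+ROSI mice. Degs1 ran against their mean over the mice with r of -0.67 (-0.77 without cHF+ROSI mouse 1 and cHF+F+ROSI mouse 2), and Sptlc2 with r of -0.54. The endothelial genes had a median log2 fold change of -0.16, with 4 of 8 at or below an unadjusted 0.05 in limma. Of all probes tested, 7.46% reached this limit. Their mean log2 ratio ran from -0.41 to -0.021 in cHF+ROSI mice and from -0.53 to -0.19 with n-3 added, and Sptlc1 ran against it over the mice with r of -0.67. The 9 slow fibre genes had a median log2 fold change of -0.43, with 1 at this limit, and mean ratios of -1.18 to 0.56 in the cHF+ROSI and -2.04 to 0.29 in the cHF+F+ROSI mice. The 7 adipocyte genes kept had a median of 0.32, with 0 at this limit and ranges of -1.02 to 0.38 and -1.40 to 1.00, and Asah1 ran against their mean with r of -0.72. The median was 0.0088 for 8 macrophage genes, with which Degs1 had an r of 0.62, -0.32 for 7 Schwann cell genes and 0.19 for 3 red blood cell genes, with 0 at this limit in each. Adrb3, Pllp and Hbb-b2 did not reach the limit on signal over background. The r values named here were picked as the largest in size of all members against all marker lists, and Asah1 also followed array brightness. The part of cell types in the members' values was not tested.

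Beyond the 10 enzymes, 54 other sphingolipid genes were listed by their known roles. The arrays held 49 of them with 84 probes, and 47 probes of 36 genes were kept. At an adjusted p of 0.05 in limma, 0 of 47 were called. The unadjusted p was at or below 0.05 for 2 probes higher and 3 lower with n-3 added, which is 10.6% of the 47, beside 7.46% of all probes. With 1 array left out at a time this count lay between 2 (without cHF+ROSI mouse 1 or cHF+F+ROSI mouse 6) and 7 (without cHF+F+ROSI mouse 5). The share of all probes at the limit was 6.41%, 7.02% and 10.2% without these mice, in this order. With the FC limit of 1.2 added, 0 of 47 remained, against 1.49% of all probes. The other genes of de novo synthesis, such as the Ormdl genes that restrain serine palmitoyltransferase, had 0 of 11 probes at the unadjusted limit and a range of -0.11 to 0.067. The ceramidases likewise had 0 of 6, from -0.056 to 0.11.

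Of the 5 probes, 4 belonged to the breakdown of glycosphingolipids and to sphingosine 1-phosphate. Arsa, the lysosomal sulfatase that degrades sulfatide, had a log2 ratio of -0.066, 0.077 and 0.20 at the lowest, median and highest cHF+ROSI mouse and of -0.36, -0.059 and 0.049 in the cHF+F+ROSI mice. No cHF+F+ROSI mouse exceeded the cHF+ROSI mean, yet 4 of 8 lay inside its range. The log2 fold change was -0.17 ± 0.059, with an unadjusted p of 0.0097 and an adjusted p of 0.507 in limma.

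For Hexa, a hexosaminidase subunit that degrades ganglioside GM2, the values were -0.27, -0.19 and 0.017 against -0.38, -0.27 and -0.21, and the log2 fold change was -0.13 ± 0.049 with an adjusted p of 0.574 in limma. Sphk2, a kinase that forms sphingosine 1-phosphate, had -0.18 ± 0.077 and an adjusted p of 0.630, with ranges of -0.42 to -0.0070 in the cHF+ROSI and -0.69 to -0.24 in the cHF+F+ROSI mice. Sgpl1, the lyase that degrades the same lipid, had the opposite sign, with 0.16 ± 0.073, an adjusted p of 0.663 and ranges of 0.064 to 0.53 and 0.21 to 0.62. Samd8, a relative of the sphingomyelin synthases that makes ceramide phosphoethanolamine, had the largest value at its brightest probe, 0.20 ± 0.083 with an adjusted p of 0.610. All 8 cHF+F+ROSI mice were above the cHF+ROSI mean there, but the other Samd8 probes kept gave 0.015 ± 0.067 and 0.076 ± 0.068. No gene of the pathway passed the adjusted test, and the differences of these 5 genes are given as values only.

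**Figure D5:**
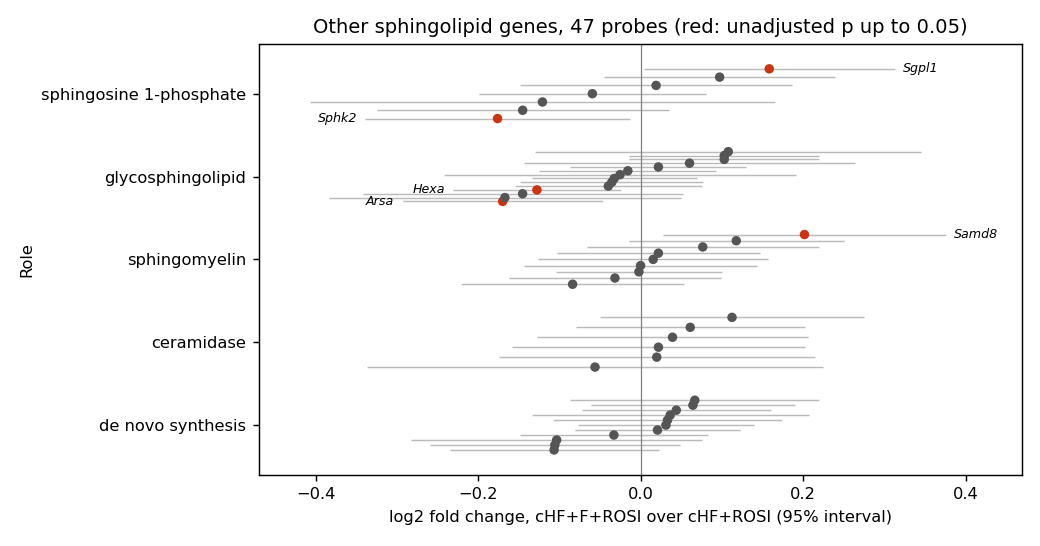
Log2 fold change of cHF+F+ROSI over cHF+ROSI with 95% intervals for the 47 kept probes of the other sphingolipid genes, grouped by role, with red points for an unadjusted p of up to 0.05. The red points are Sgpl1 and Samd8 above 0 and Sphk2, Arsa and Hexa below 0, all between -0.18 and 0.20.

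As a control, the pool in Cy3 was compared between arrays of both diets. The unadjusted p in limma was at or below 0.05 for 0 of 14 member probes and for 700 of all 19398 probes. With so few member probes, a count of 0 is no trait of the members. The member with the largest log2 difference in Cy3 was Lass2, at the -0.16 given above.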

How the data were processed

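The authors hybridised Cy5-labelled RNA of each mouse beside a Cy3-labelled equimolar pool of samples, with no dye swap, and deposited spot intensities quantified by Agilent Feature Extraction (10.5.1.1 in the file headers, 10.5.5.1 in the submitters' processing notes) from scans at low and high laser power. The deposited table of log2 values, normalized by the authors in GeneMaths XT, was used as an alternative. Probe positions are those of mm8 in the file headers.

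Median signals were corrected by normexp with an offset of 50, and control spots were removed. A spot was kept if its mean signal was 2 or more times background in Cy5 and in Cy3, and values that bore an outlier flag were set to missing. Loess normalization within arrays and averaging over the spots of each probe followed. Tests were made in limma 3.58.1 (R 4.3.3), and p-values were adjusted by Benjamini-Hochberg across 19398 probes. Exact permutation tests over mice were two-sided. All 10 members with each probe were named, of the other sphingolipid genes those with an unadjusted p at or below 0.05 and the 3 of the largest change, and for each member the 3 genes of highest r. A gene with several probes was represented by the one brightest in Cy5. The members and lists were chosen with earlier results of these data known. Steps were tested on simulated data. No arrays held identical signals. The labels give 8 animals per group, and the number of arrays limits the precision. The alternatives were background correction, normalization, Cy5 alone, the authors' table, filters, slide and replicate blocks, the methods' t-test, array weights and arrays left out.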

Additional observations from a re-analysis of the deposited data

Results flagged for a closer look

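Of the members, 3 probes of the members held a mouse far from the other 7 of its group by Dixon's test, among 46 sets of 8 mice examined over the members and the named sphingolipid genes, where about 2.3 would be found by chance. At the brighter Sgms1 probe, cHF+ROSI mouse 1 had a log2 ratio of -0.20 and the next mouse -0.74, and its array was the dimmest in Cy5. At the dimmest kept Ugcg probe, cHF+F+ROSI mouse 5 had -0.061 and the next mouse -0.36. At the Lass6 probe that was not well above background, cHF+ROSI mouse 7 had -0.34 and the next mouse -0.13.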

How the results depend on the processing

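No member gene passed an adjusted p of 0.05 in limma under any of 30 alternatives, 1 of which (both arrays that stand apart left out, cHF+ROSI 1 for its low Cy5 signal and cHF+F+ROSI 2 for its slow fibre genes) was chosen after seeing the data. The lowest adjusted p among the 300 values of the 10 genes was 0.443, and 8 values reached an unadjusted p of up to 0.05. Member probes at that unadjusted limit, 0 in the report, were 2 without background correction (10.3% of all probes) and with the replicate block (7.36%). There was 1 with processed signals (2037 of 19398), scale normalization (4.93%), Cy5 alone (7.62%), the authors' table (7.98%) and no filter (5.19% of 41174). Leaving out 1 array gave 0 to 3 member probes, with 3 without cHF+F+ROSI 5 (10.2% of all probes). It gave 2 without cHF+ROSI 2 (7.27%) or 8 (8.75%) and 1 without cHF+ROSI 6 (8.06%) or 7 (8.34%). Counts this small are no trait of the members. Other sphingolipid probes at the limit, 5 in the report, were 9 with the processed signals (2037 of all probes, against 1447 in the report). They were 3 with median centring (4.23% of all probes) or without both arrays (6.28%), and 2 to 7 with 1 array left out. The count was 2 without cHF+ROSI 1 (6.41%) or cHF+F+ROSI 6 (7.02%), and 3 without cHF+ROSI 5 (6.33%), cHF+F+ROSI 4 (6.46%) or 7 (6.73%).

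Of the 10 genes, 5 changed sign under at least 1 setting other than an array left out, Sgms1 with its value of -0.16 included. Lass6 became 0.022 when background was not corrected, 0.026 with the processed signals, 0.018 with median centring, 0.027 with Cy5 alone, 0.028 in the authors' table and 0.010 with a limit of 3 on signal over background. Degs1 became 0.010 (background not corrected), 0.0089 (processed signals), 0.046 (Cy5 alone), 0.063 (authors' table) and 0.0061 (limit of 3). Asah1 became 0.0084 with Cy5 alone and 0.032 in the authors' table, Smpd1 -0.013 with median centring and Sgms1 0.089 with scale normalization, and the cause was not tested. Scale normalization also gave Smpd1 its highest value, 0.23 ± 0.17, against 0.034 in the report. Over the 14 settings other than a single array left out, Ugcg ran from -0.26 with the processed signals to -0.079 without both arrays. With 1 array left out, Lass6 ran from -0.047 to 0.039, Degs1 from -0.028 to 0.019, Asah1 from -0.031 to 0.024, Ugcg from -0.20 to -0.11, Sgms1 from -0.20 to -0.061 and the median of the members from -0.032 to 0.019. Sptlc1, Sptlc2, Lass2, Lass5 and Ugcg kept their sign under all 30 alternatives. With the replicate block, Ugcg had -0.16 at an unadjusted p of 0.0286 and an adjusted p of 0.652. The replicate numbers do not pair the mice, as deviations of mice with the same number had r of -0.34 to 0.73 and 2 of 8 were best with their own number. The replicate block could not be fitted for the authors' table. The weak Cy3 signal, at a median of 1.78 to 2.02 times background, limits the ratios of dim probes.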
